A study of Mus musculus with 11 samples.

Results

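The developmental homeobox, T-box and SOX factors are 62 of the 14272 genes with a row in the RNA sequencing of a murine model of melanoma progression. The members were chosen by symbol alone: every gene named Hoxa to Hoxd, Tbx, Meis, Pbx, Msx, Dlx, Lhx, Irx, Nkx, Alx or Sox with a number, and those named like Six4, leaving out Sox10. The annotation holds 123 protein-coding genes with such names, and the other 61 were not analysed here. The Hox genes account for 25 members, namely 10 of 11 in the Hoxa cluster, 6 of 10 in Hoxb, 9 of 9 in Hoxc and 0 of 9 in Hoxd. The other homeobox genes account for 25 members, the SOX genes for 8 and the T-box genes for 4. No member was picked by its own value, but the names were chosen with earlier results of these data known. A gene also had to pass the authors' filter on level, given below, to have a row.

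Total RNA of 4 cell lines was sequenced, with 11 libraries used here. Melan-a is a spontaneously immortalized, nonmalignant melanocyte line syngeneic to C57Bl/6 mice, with an epithelial morphology and with 200 nM of the phorbol ester PMA in its medium (2 libraries). 4C (non-tumorigenic and pre-malignant), 4C11- (melanoma cells that do not metastasize) and 4C11+ (metastatic melanoma cells) were derived from melan-a by repeated cycles without attachment, and were grown without PMA (3 libraries each). The shape of 4C and 4C11- is mesenchymal-like, whereas that of 4C11+ is epithelial. Each line is a single line, so a difference between lines cannot be told apart from what is particular to that line, and a difference from melan-a cannot be told apart from the PMA. The libraries of a line came from separate cultures. As in any bulk sample, fewer cells that express a gene and less RNA of it in each cell cannot be told apart.

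Homeobox genes code for transcription factors that bind DNA through a homeodomain. The Hox genes lie in clusters on the chromosomes, and their order along a cluster follows the order of their expression from head to tail in the embryo, so that the set of active Hox genes records where in the body a cell came from. HOX proteins bind DNA together with PBX and MEIS proteins, while the products of the Dlx, Msx, Lhx and Alx genes and of Six4 and its relatives pattern the head, limbs and neural crest, the embryonic tissue from which melanocytes arise. T-box factors, which bind DNA through the T-box, and SOX factors, which bind it through an HMG box, control cell fate in the same tissues.

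The deposited values are log2 CPM, the counts of a gene scaled to a common library total. A depth computed from the step of 40 reads among the low values would be about 3500000 to 7420000 reads a library. However, all libraries share 1 highest value, so the values were normalized beyond a scaling to the total. The true depths therefore cannot be read from them. A gene was treated as not detected in a line when none of the libraries of that line was over 3 reads, and its difference is then also given as a bound with that line set at 3 reads. The lines were checked against marker lists. All 10 melanocyte markers were over 3 reads in at least 1 library of melan-a and of 4C11+, where their summed level was 1855 to 9210 and 11505 to 13810 CPM. It was 6.93 to 9.72 CPM in 4C and 6.67 to 13.4 CPM in 4C11-, so that most of the melanocyte markers were near the floor in these lines. Mitf, the regulator of the melanocyte lineage, was at 7.73 to 7.97 log2 CPM in melan-a and 6.23 to 8.76 in 4C11+, and at -0.70 to 0.87 in 4C and -0.70 to 1.14 in 4C11-. Not all markers separated the lines: Tyr was low in melan-a too, at -0.25 to 1.29, against 8.39 to 8.70 in 4C11+, and Pmel in 4C11- (0.60 to 2.54) overlapped with melan-a (2.41 to 2.95). The 4 fibroblast or mesenchyme markers with a row summed to 2307 to 2630 CPM in 4C and 1968 to 2230 CPM in 4C11-, against 19.8 to 206 CPM in melan-a and 25.8 to 45.0 CPM in 4C11+. The epithelial sum of 3 markers was also high in 4C (493 to 678 CPM) and 4C11- (203 to 295 CPM) and at most 4.97 CPM in melan-a and 1.72 CPM in 4C11+, with Krt18 as its main gene. The part of these differences in the results on the factors was not tested. Cdh5, the 1 endothelial marker with a row, gave 92.9 to 172 CPM in 4C11- and at most 16.1 CPM in the other lines.

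Most of the factors were higher where the shape was mesenchymal-like. In 4C against melan-a, 35 of the 62 members were higher, where 7.64% of all genes were called higher, and 8 were lower, where 7.55% of all genes were called lower (limma over all 11 libraries, Benjamini-Hochberg adjusted p under 0.05, as in every count that follows). From 4C to 4C11-, both mesenchymal-like, 5 members were higher against 1.26% of all genes, and 0 were lower against 0.406% of all genes (limma, 1 at an unadjusted p under 0.05). In 4C11+ against 4C11-, 33 members were lower (15.4% of all genes) and 7 were higher (15.6% of all genes). In 4C11+ against melan-a, the epithelial lines, 13 members were higher (8.39% of all genes) and 5 lower (7.52% of all genes). With the lines joined, 37 members were higher in the mesenchymal-like lines (14.3% of all genes) and 9 were higher in the epithelial lines (15.3% of all genes). A difference among the 4 lines was found for 50 members, against 36.1% of all genes.

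The median log2 difference of the 62 members was 3.01 between 4C and melan-a, 0.12 for the step to 4C11- and -2.06 for the step on to 4C11+, where the medians of all genes were -0.06, 0.01 and 0.12. With the lines that lack a gene set at 3 reads, the medians of the members were 1.39, 0.10 and -1.10. The authors' filter asked for 1 CPM or more in 4 or more libraries. A member that is not detected in the epithelial lines therefore passed this filter only through the mesenchymal-like lines and had to differ, and a factor expressed in the 3 libraries of a single line could not pass at all. For this reason the counts of members are a description, and so is the difference of a member from lines in which it was not detected. Where a member was not detected in either epithelial line, its difference from them is given without a p.

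**Figure D1:**
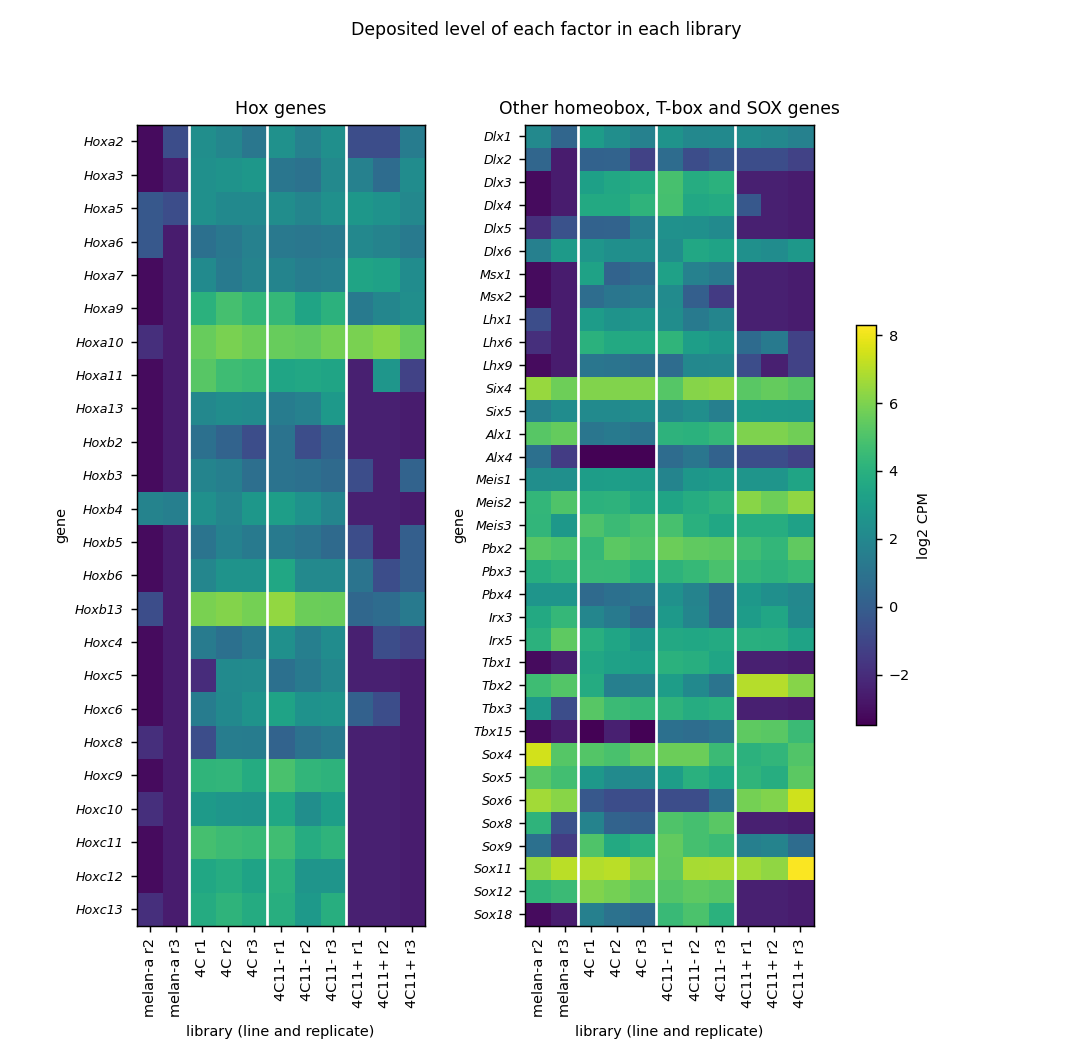
Level of 59 factors (rows, log2 CPM in color) in each of the 11 libraries (columns, line and replicate), with the Hox genes on the left and the other factors on the right. White lines separate the cell lines, and the dark blocks show factors at or near 0 reads, which for the Hoxc genes fill the melan-a and 4C11+ columns.

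Many of the factors were not detected in the epithelial lines. Of the 62 members, 34 were at or under 3 reads in every melan-a library, where 4.79% of all genes were, and 26 in every 4C11+ library, where 7.15% of all genes were. In 4C and 4C11- the numbers were 3 and 1, where 2.40% and 1.43% of all genes were. In 20 members neither epithelial line had a library over 3 reads while both mesenchymal-like lines did, against 2.42% of all genes. They were 11 Hox genes (Hoxa13, Hoxb2 and the 9 Hoxc genes) together with Dlx3, Dlx4, Dlx5, Msx1, Msx2, Lhx1, Lhx9, Sox18 and Tbx1.

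All 9 genes of the Hoxc cluster (chr15:102921103-103036852, GRCm38) were detected in the mesenchymal-like lines and in neither epithelial line. All 9 were called higher in 4C than in melan-a (7.64% of all genes) and lower in 4C11+ than in 4C11- (15.4% of all genes). They passed the authors' filter through the mesenchymal-like lines, so both directions were fixed in advance and are a description. Hoxc11, a paralog of the tail end of the cluster, was at 0 reads in both melan-a libraries, at 4.83, 4.60 and 4.47 log2 CPM in 4C, at 4.67, 3.80 and 4.16 in 4C11-, and at 0 reads in all 3 libraries of 4C11+. Hoxc9, a marker of trunk level, was at 0 reads in the same 5 epithelial libraries, at 4.21, 4.25 and 3.78 log2 CPM in 4C and at 4.91, 4.26 and 4.14 in 4C11-. Hoxc13, known for its role in hair and nail, had at most 1 read in an epithelial library and lay at 3.78, 4.19 and 3.78 log2 CPM in 4C and 3.88, 2.83 and 3.88 in 4C11-. In these 3 genes the epithelial and mesenchymal-like libraries did not overlap, which is a description for the same reason.

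The mesenchymal-like lines exceeded the epithelial lines in log2 level by 7.10 for Hoxc11 (SE 0.30), by 6.93 for Hoxc9 (SE 0.31) and by 6.09 for Hoxc13 (SE 0.33). At 3 reads in the epithelial lines these are at least 24.4-fold, 21.7-fold and 15.0-fold. Hoxc10 and Hoxc12 followed with 5.24 and 6.01, and Hoxc4, Hoxc5, Hoxc6 and Hoxc8 with 3.78, 3.77, 4.39 and 3.18. The level of Hoxc8 was near the floor, and its difference was at least 2.00-fold. Hoxc5 was at 2 reads in 4C replicate 1 against 32 and 26 in the other 2 libraries, and its call in 4C against melan-a was lost in 8 of the 11 fits without a library. Hoxc5 and Hoxc10 share exonic bases on the same strand in the annotation, so reads between them cannot be told apart. Between melan-a and 4C11+ 0 of the 9 genes passed the limma test (2 at an unadjusted p under 0.05), and all 9 were at or under 3 reads in every library of both.

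The Hoxa cluster on chromosome 6 was divided. In 4C against melan-a, 9 of its 10 genes were higher and 0 lower (limma, 0 lower also at an unadjusted p under 0.05). The shares of all genes were 7.64% and 7.55%. But in 4C11+ against 4C11- only 4 were lower (15.4% of all genes) and 1 was higher (15.6% of all genes). Hoxa10, a paralog of the lumbar level that is also known from hematopoiesis and the uterus, stayed on in all 3 derived lines. It had 1 and 0 reads in melan-a, and lay at 5.54, 5.91 and 5.67 log2 CPM in 4C, at 5.56, 5.45 and 5.85 in 4C11- and at 5.91, 6.20 and 5.55 in 4C11+. The derived libraries overlapped one another and were all far above melan-a. The log2 difference from melan-a was 7.95 in 4C (SE 0.32, adjusted p = 6.01e-08, limma) and 8.13 in 4C11+ (SE 0.32, adjusted p = 8.98e-08, limma), which at 3 reads in melan-a is at least 68.6-fold and 77.7-fold. Between 4C11+ and 4C11- it was 0.27 (SE 0.29, adjusted p = 0.518, limma).

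The genes on the head side of Hoxa10 showed several degrees of retention in 4C11+. Hoxa7 was at 0 reads in melan-a, at 2.13, 1.31 and 1.77 log2 CPM in 4C, at 1.83, 1.51 and 1.66 in 4C11- and at 3.37, 3.24 and 2.23 in 4C11+. Hoxa3 was at 0 reads in melan-a, at 2.41, 2.55 and 2.76 in 4C, at 1.13, 0.96 and 2.03 in 4C11- and at 1.70, 0.67 and 2.23 in 4C11+. Hoxa9, a factor with a role in leukemia, was at 0 reads in melan-a, at 4.03, 4.84 and 4.33 in 4C, at 4.36, 3.38 and 4.10 in 4C11- and at 1.33, 1.90 and 2.32 in 4C11+. So Hoxa7 was highest in 4C11+, and Hoxa9 was lower in 4C11+ without overlap but still above melan-a. The libraries of Hoxa3 were higher in 4C than in 4C11- and 4C11+, which overlapped each other. The difference of Hoxa3 between 4C11- and 4C did not pass the test (-1.20, adjusted p = 0.319, limma).

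Against melan-a, the log2 differences of 4C11+ were 5.81 for Hoxa7 (SE 0.50, adjusted p = 1.72e-05, limma), 4.72 for Hoxa9 (SE 0.47, adjusted p = 5.83e-05, limma) and 4.40 for Hoxa3 (SE 0.57, adjusted p = 0.000421, limma). They are at least 10.1-fold, 4.74-fold and 3.80-fold. Hoxa5 and Hoxa6 were higher in 4C11+ than in melan-a by 2.90 and 3.12, or at least 7.07-fold and 4.28-fold, and they did not pass the test between 4C11+ and 4C11-, with differences of 0.24 and 0.43. The higher level of Hoxa7 in 4C11+ than in 4C11- (1.28, adjusted p = 0.0490, limma) lost its call in 8 of the 11 fits without a library.

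The tail end of the Hoxa cluster was lower again in 4C11+. Hoxa13, which patterns the distal limb and the genital tract, was at 0 reads in melan-a and in 4C11+ and between 1.46 and 2.83 log2 CPM in the 6 mesenchymal-like libraries. Hoxa11 was at 0 reads in melan-a, at 5.25, 4.63 and 4.45 log2 CPM in 4C, at 3.44, 3.59 and 3.41 in 4C11-, and at 0, 26 and 1 reads in 4C11+. The 4C11+ libraries thus disagreed, and the fall of Hoxa11 from 4C11- (-3.77, SE 0.99, adjusted p = 0.0129, limma) was not called without 4C11+ replicate 1 (adjusted p = 0.0525, limma). Its rise in 4C against melan-a was 7.65 (SE 1.10), or at least 36.1-fold. Hoxa11 passed the authors' filter mainly through the mesenchymal-like lines, so this rise is a description. Hoxa11 overlaps exons of Hoxa11os on the other strand, and the strand setting of the read counting is not given in the sources used here. Hoxa2, a hindbrain gene, was lower in 4C11+ than in 4C11- (-2.16, SE 0.74, adjusted p = 0.0453, limma), a call lost in 8 of the 11 fits without a library.

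The promoters of 33 of the 62 factors are in the table of RefSeq promoters (GRCm38.p6), as 43 windows. Shown are the 250 bases before the start of Hoxa10, which stayed on in 4C11+, of its neighbor Hoxa9, which was partly retained, of Hoxa13, which was not detected in 4C11+, and of Hoxb4, which was detected in melan-a but not in 4C11+. Capitals mark TATAAA and CCAAT on either strand, and none of the marked matches overlap. The window of Hoxa10 is the nearer of its 2 starts to Hoxa9 (chr6:52234940-52235189, minus strand), and the others are Hoxa9 (chr6:52227371-52227620, minus strand), Hoxa13 (chr6:52260881-52261130, minus strand) and Hoxb4 (chr11:96318017-96318266, plus strand).
Hoxa10: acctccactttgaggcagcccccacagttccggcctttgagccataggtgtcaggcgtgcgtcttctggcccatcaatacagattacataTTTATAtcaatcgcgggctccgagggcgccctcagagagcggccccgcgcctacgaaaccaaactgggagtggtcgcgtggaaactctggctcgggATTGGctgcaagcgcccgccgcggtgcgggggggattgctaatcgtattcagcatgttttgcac
Hoxa9: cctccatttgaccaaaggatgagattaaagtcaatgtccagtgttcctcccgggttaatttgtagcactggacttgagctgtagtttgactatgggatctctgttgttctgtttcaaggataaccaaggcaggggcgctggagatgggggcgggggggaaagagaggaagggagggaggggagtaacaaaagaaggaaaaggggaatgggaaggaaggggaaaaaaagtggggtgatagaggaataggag
Hoxa13: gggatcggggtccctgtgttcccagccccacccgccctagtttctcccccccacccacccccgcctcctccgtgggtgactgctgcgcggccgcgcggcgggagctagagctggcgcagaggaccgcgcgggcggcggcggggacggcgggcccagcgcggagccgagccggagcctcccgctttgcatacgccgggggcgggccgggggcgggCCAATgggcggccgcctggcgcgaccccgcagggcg
Hoxb4: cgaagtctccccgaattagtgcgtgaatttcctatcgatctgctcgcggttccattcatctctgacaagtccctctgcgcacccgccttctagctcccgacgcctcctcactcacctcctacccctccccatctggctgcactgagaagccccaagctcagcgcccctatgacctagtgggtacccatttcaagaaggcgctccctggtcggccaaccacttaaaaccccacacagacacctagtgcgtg

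The number of CpG dinucleotides in these windows was 20 for the printed window of Hoxa10 and 7 for its other one (chr6:52240855-52241104, minus strand, before the annotated start of the gene and with none of the marked motifs), 3 for Hoxa9, 35 for Hoxa13 and 14 for Hoxb4, against a median of 13 over the 43 windows of the factors and of 6 over 32817 windows of all genes. TATAAA was found in 3 of the 43 windows (12.4% of all windows) and CCAAT in 21 (33.8% of all windows). The E-boxes CACGTG, bound among others by MITF, and CAGGTG, bound by ZEB and SNAIL factors, were found in 2 and 3 windows (6.02% and 17.2% of all windows). The joint PBX and HOX site TGATTNAT was found in 1 window, that of Hoxa2 (2.83% of all windows), the T-box site AGGTGTGA in 0 (1.12% of all windows) and the SOX site AACAAAG in 5 (5.03% of all windows). All were sought on both strands. The factors were too few to relate these matches to the lines, and no such test was made.

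The Hoxb cluster (chr11:96194316-96368256, GRCm38) followed the mesenchymal-like state, with an exception. All 6 genes were higher in the mesenchymal-like lines with the lines joined (14.3% of all genes). However, 5 of them were not detected in melan-a, and Hoxb2 was detected in neither epithelial line. The authors' filter thus favored this direction, and the count is a description. Hoxb13, the gene at the tail end, known for its role in the prostate, had 2 and 0 reads in melan-a, and lay at 5.92, 6.10 and 5.86 log2 CPM in 4C, at 6.40, 5.65 and 5.60 in 4C11- and at 0.44, 0.67 and 1.32 in 4C11+. The mesenchymal-like and epithelial libraries did not overlap, and 4C11+ kept a low level. The level of Hoxb13 in 4C exceeded that in melan-a by 7.61 (SE 0.52), or at least 81.7-fold. This is a description, since Hoxb13 was not detected in melan-a. From 4C11- to 4C11+ it fell by 5.07 (SE 0.47, adjusted p = 9.51e-06, limma).

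Hoxb4, known for its part in hematopoietic stem cells, was the exception. It lay at 1.77 and 1.59 log2 CPM in melan-a, at 2.44, 1.90 and 2.76 in 4C, at 3.11, 2.52 and 1.87 in 4C11- and at 0 reads in all 3 libraries of 4C11+. Melan-a was just below the mesenchymal-like lines, and 4C11+ was below all. The difference of 4C11+ from melan-a was -4.17 (SE 0.50, adjusted p = 0.000257, limma), or at least 3.15-fold lower, and the difference of 4C from melan-a was 0.69 (SE 0.50, adjusted p = 0.429, limma). Hoxb2, Hoxb3, Hoxb5 and Hoxb6 were at 0 reads in melan-a and had line means of 0.14 to 2.34 log2 CPM in 4C. In 4C11+ Hoxb2 was at 0 reads, and the highest libraries of Hoxb3, Hoxb5 and Hoxb6 were at 0.28, 0.06 and 1.04 log2 CPM.

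**Figure D2:**
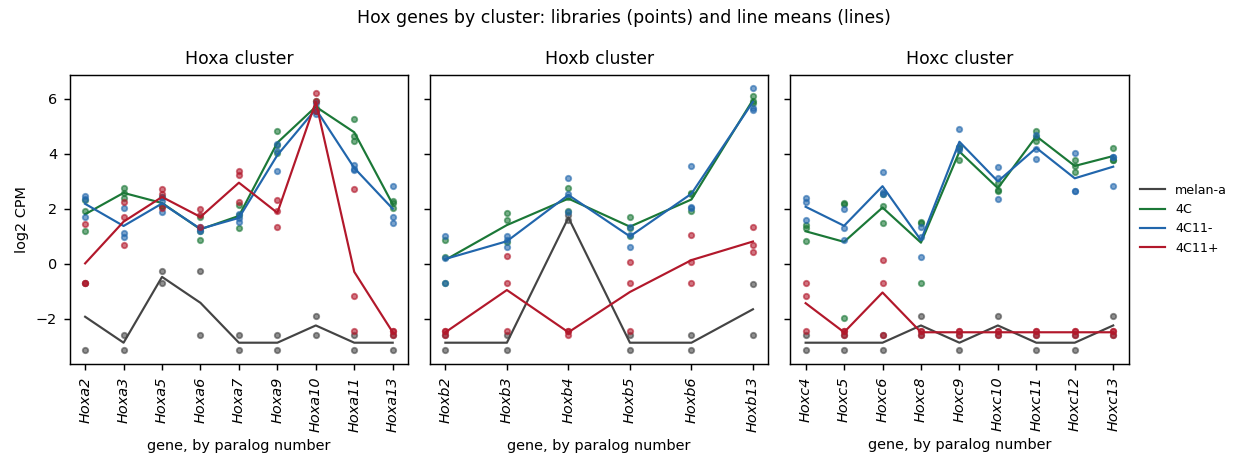
Level (log2 CPM, y axis) of Hox genes of the Hoxa, Hoxb and Hoxc clusters, ordered by paralog number (x axis), with a point for each library and a line joining the means of a cell line. The 4C and 4C11- means lie close together at most genes. Hoxa3 and Hoxa11 are higher in 4C, but neither was called between these lines. Melan-a is at or under 3 reads in the genes shown except Hoxb4. The 4C11+ libraries overlap or exceed both mesenchymal-like lines at Hoxa5, Hoxa6, Hoxa7 and Hoxa10. They overlap 4C11- alone at Hoxa3, and neither line at any gene of the Hoxc cluster.

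In each comparison below, most genes of the TALE class (the Pbx and Meis genes of the HOX partners, and Irx) were not called. All 9 were detected in every line, whereas most Hox genes were not detected in melan-a. The authors' filter thus bore on the Hox genes more, and a contrast between these groups is a description. In 4C against melan-a the 9 TALE genes gave 0 higher and 2 lower calls (limma, 1 higher and 3 lower at an unadjusted p under 0.05). The shares of all genes were 7.64% and 7.55%. In 4C11+ against 4C11- 1 was higher and 1 lower, beside 15.6% and 15.4% of all genes. With the lines joined 0 were higher and 3 lower in the mesenchymal-like lines, beside 14.3% and 15.3% of all genes. Pbx2 (line means of 4.81 to 5.46 log2 CPM), Pbx3 (4.05 to 4.49), Meis1 (2.36 to 3.07), Meis3 (3.54 to 4.82) and Irx5 (3.38 to 4.73) were not called among the 4 lines, with adjusted p of 0.12 or more by limma. Pbx2 shares exonic bases with Gpsm3, and its level is uncertain.

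Meis2, a MEIS factor active in the neural crest and limb, was highest in 4C11+ at 6.19, 5.71 and 6.34 log2 CPM, against 4.31 and 5.05 in melan-a, 4.07, 4.15 and 3.60 in 4C and 3.37, 3.80 and 4.12 in 4C11-. Its log2 difference between 4C11+ and 4C11- was 2.32 (SE 0.31, adjusted p = 0.000192, limma). Pbx4 and Irx3 were lower in 4C than in melan-a, at -1.82 and -2.76. The call of Pbx4 was lost in 8 of the 11 fits without a library, and that of Irx3 in 2.

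The DLX and MSX factors, which pattern the branchial arches, skin appendages and bone, divided by gene pair. Dlx3 and Dlx4, neighbors on chromosome 11 with a gap of 15.2 kb (Dlx3 at chr11:95120119-95125296), were both detected in the mesenchymal-like lines and in neither epithelial line. Dlx3 was at 0 reads in all 5 epithelial libraries, at 3.20, 3.58 and 3.78 log2 CPM in 4C and at 4.87, 3.80 and 4.05 in 4C11-. Dlx4 had 2 reads in 4C11+ replicate 1, 0 reads in the other 4 epithelial libraries, and lay at 3.67, 3.67 and 4.18 in 4C and 4.84, 3.59 and 3.73 in 4C11-. With the lines joined, the differences were 6.56 for Dlx3 (SE 0.33) and 6.25 for Dlx4 (SE 0.47), or at least 16.7-fold and 17.5-fold. Dlx4 overlaps exons of Dlx4os on the other strand.

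The other DLX pairs differed from this one. Dlx5 was at 0 reads in 4C11+, at -1.90 and -0.54 log2 CPM in melan-a, at 0.20, 0.26 and 1.58 in 4C and at 2.48, 2.41 and 2.17 in 4C11-. From 4C11- to 4C11+ it fell by 4.84 (SE 0.56), or at least 5.02-fold. Its neighbor Dlx6, 9.24 kb away, was at 1.63 to 3.57 log2 CPM in all 11 libraries and was not called among the lines (adjusted p = 0.507, limma). Dlx1 and Dlx2, 9.43 kb apart on chromosome 2, were not called either, with adjusted p of 0.371 and 0.662 (limma) and Dlx2 near the floor. Msx1 and Msx2, general regulators of mesenchyme beneath epithelium, were at 0 reads in all 5 epithelial libraries, and their mesenchymal-like libraries spread widely, from 0.26 to 3.29 log2 CPM for Msx1 and from -1.50 to 2.18 for Msx2. The joined difference was at least 3.77-fold for Msx1 and at least 1.78-fold for Msx2.

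The LIM homeobox factors were higher in 4C than in melan-a in 3 of 3 genes (7.64% of all genes). In 4C11+ they were lower than in 4C11- in 3 of 3 (15.4% of all genes). Lhx6, known from the jaw mesenchyme and from interneurons, had at most 1 read in melan-a, and lay at 4.04, 3.69 and 3.62 log2 CPM in 4C, at 4.21, 3.11 and 2.75 in 4C11- and at 0.63, 1.32 and -1.16 in 4C11+. The rise in 4C was 6.03 (SE 0.69), or at least 18.1-fold, a description since Lhx6 was not detected in melan-a. The lower level in 4C11+ was above that of melan-a by 2.51, or at least 1.58-fold, a call lost in 5 of the 11 fits without a library. Lhx1, a kidney and head organizer gene, and Lhx9, a gonad and limb gene, were not detected in either epithelial line. Both passed the authors' filter through the mesenchymal-like lines, so their directions were fixed in advance and are a description. Their differences with the lines joined were at least 5.58-fold and 2.77-fold.

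Six4 had line means of 5.33 to 6.08 log2 CPM and was not called among the lines (adjusted p = 0.197, limma), nor was Six5 (1.93 to 2.85, adjusted p = 0.153, limma). Alx1, a factor of the face mesenchyme, was at 5.23 and 5.50 log2 CPM in melan-a, 1.13, 1.39 and 1.05 in 4C, 4.12, 4.06 and 4.37 in 4C11- and 6.01, 6.01 and 5.73 in 4C11+. No 2 lines overlapped, and the low level belonged to 4C. The log2 difference was -4.18 between 4C and melan-a (SE 0.28, adjusted p = 1.36e-06, limma) and 1.73 between 4C11+ and 4C11- (SE 0.25, adjusted p = 0.000331, limma), and the rise from 4C to 4C11- was 7.98-fold (adjusted p = 0.000130, limma). Alx4, which overlaps with Alx1 in its known roles in the face, was at 0.87 and -1.42 in melan-a, at 0 reads in 4C, at 0.69, 1.14 and 0.22 in 4C11- and at 1 read in each 4C11+ library. The lower level in 4C than in melan-a was at least 1.98-fold and was not called without melan-a replicate 2 (adjusted p = 0.134, limma).

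The T-box factors took 4 different courses. Tbx1, a factor of the pharynx and heart that is linked to DiGeorge syndrome, was at 0 reads in all 5 epithelial libraries, at 3.57, 3.28 and 3.16 log2 CPM in 4C and at 4.06, 3.88 and 3.44 in 4C11-. Its joined difference was 6.24 (SE 0.31), or at least 13.5-fold. Tbx2, known to repress senescence genes in melanoma, ran the other way at 4.64 and 5.14 in melan-a, 3.78, 1.58 and 1.68 in 4C, 3.06, 2.09 and 1.05 in 4C11- and 6.97, 6.99 and 6.17 in 4C11+. The epithelial libraries were all above the mesenchymal-like ones, and 4C11+ was highest, with a difference of 4.64 from 4C11- (SE 0.62, adjusted p = 0.000166, limma).

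Tbx3, the close relative of Tbx2, did not share its pattern. It was at 2.85 and -0.70 log2 CPM in melan-a, between 3.82 and 5.21 in the 6 mesenchymal-like libraries and at 0 reads in all 3 of 4C11+. The fall from 4C11- to 4C11+ was 6.48 on the log2 scale (SE 0.70, adjusted p = 3.56e-05, limma), or at least 15.7-fold, and the melan-a libraries disagreed with 26 and 2 reads. Tbx15 (chr3:99240381-99354259), a factor of the dorsal dermis and skeleton, was at 0 reads in melan-a, at 0, 1 and 0 reads in 4C, at 0.85, 0.70 and 1.05 in 4C11- and at 5.37, 5.28 and 4.54 in 4C11+. It was higher in 4C11+ than in melan-a by 7.93 (SE 0.55, adjusted p = 3.32e-06, limma), or at least 43.9-fold, and than in 4C11- by 4.19 (SE 0.49, adjusted p = 6.64e-05, limma). A rise from 4C to 4C11- was also called, at 3.97 (SE 0.49, adjusted p = 0.00158, limma), or at least 4.37-fold.

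**Figure D3:**
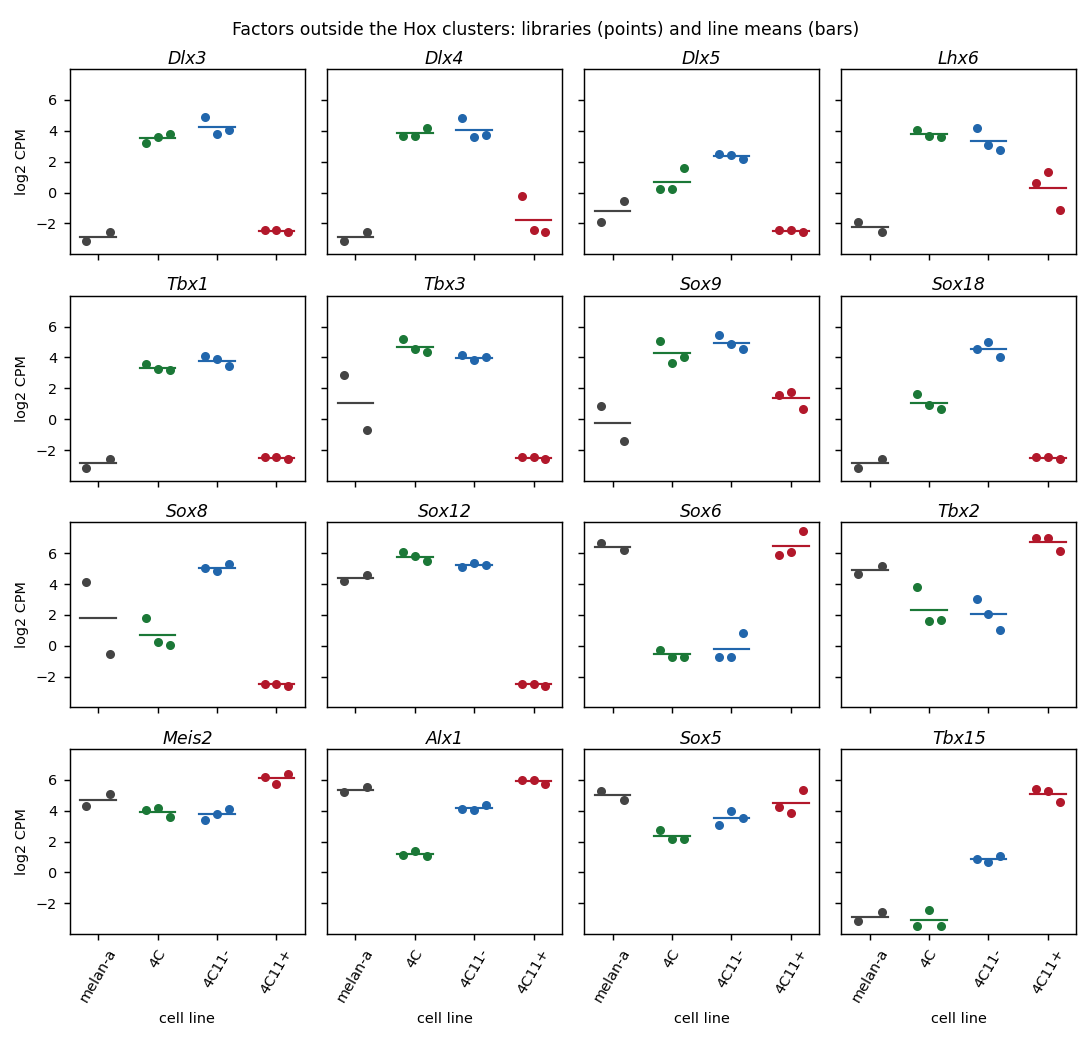
Level (log2 CPM, y axis) of 16 factors outside the Hox clusters in the 4 cell lines (x axis), with a point for each library and a bar at the mean of the line. Dlx3, Dlx4 and Tbx1 were found in 4C and 4C11-, Sox6 and Tbx2 stood higher in melan-a and 4C11+, and Sox12 was at 0 reads only in 4C11+.

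The SOX factors took opposite courses. Sox6 (chr7:115470872-116038796), which in the neural crest modulates the activity of the melanocyte regulator Sox10, was at 6.67 and 6.19 log2 CPM in melan-a, -0.25, -0.70 and -0.70 in 4C, -0.70, -0.70 and 0.85 in 4C11- and 5.86, 6.06 and 7.45 in 4C11+. The lower level in the mesenchymal-like lines was -6.81 (SE 0.39, adjusted p = 1.32e-07, limma), and the epithelial lines did not overlap with them. It was -6.98 in 4C against melan-a (SE 0.58, adjusted p = 6.96e-06, limma), and 4C11+ exceeded 4C11- by 6.63 (SE 0.52, adjusted p = 2.71e-06, limma). Its relative Sox5 was lower in 4C than in melan-a (-2.64, SE 0.47, adjusted p = 0.00233, limma), and in 4C11- it overlapped with 4C11+ at 3.06 to 3.97 against 3.84 to 5.32. The summed melanocyte markers were likewise higher in melan-a and 4C11+, and their part in these results was not tested.

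Sox9, a regulator of cartilage and of the neural crest, was at 0.87 and -1.42 log2 CPM in melan-a, 5.05, 3.65 and 4.06 in 4C, 5.47, 4.84 and 4.53 in 4C11- and 1.60, 1.78 and 0.69 in 4C11+. It was higher in the mesenchymal-like lines by 4.06 (SE 0.45, adjusted p = 2.93e-05, limma). Sox18, a factor of blood and lymph vessels, was at 0 reads in all 5 epithelial libraries, at 1.65, 0.93 and 0.63 in 4C and at 4.51, 4.98 and 4.05 in 4C11-. The rise from 4C to 4C11- was 3.45 (SE 0.48, adjusted p = 0.00354, limma), and the endothelial marker Cdh5 was also highest in 4C11-. The part of Cdh5-expressing cells in the level of Sox18 was not tested. From 4C11- to 4C11+ the level of Sox18 was at least 22.5-fold lower.

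Sox12 and Sox8 were not detected in 4C11+ and were detected in the other lines. Sox12 (chr2:152393611-152398063), a widely expressed relative of Sox4 and Sox11, was at 4.21 and 4.55 log2 CPM in melan-a, 6.05, 5.82 and 5.46 in 4C, 5.13, 5.36 and 5.23 in 4C11- and at 0 reads in all 3 libraries of 4C11+. The difference was -7.73 from 4C11- (SE 0.29, adjusted p = 1.64e-08, limma) and -6.87 from melan-a (SE 0.33, adjusted p = 1.97e-07, limma), or at least 37.1-fold and 20.5-fold lower. Sox4 and Sox11 did not share this pattern, with line means of 4.49 to 6.35 and 6.34 to 7.09 and no call among the lines (adjusted p = 0.123 and 0.619, limma). Sox8, a neural crest and glial factor, was at 4.16 and -0.54 in melan-a, 1.78, 0.26 and 0.06 in 4C, 5.04, 4.84 and 5.26 in 4C11- and at 0 reads in 4C11+. The melan-a libraries disagreed with 59 and 3 reads. The fall from 4C11- to 4C11+ was 7.54 on the log2 scale (SE 0.93, adjusted p = 9.62e-05, limma), or at least 32.5-fold, while the difference of 4C11+ from melan-a (-4.30, adjusted p = 0.0176, limma) was not called in 3 fits, without melan-a replicate 2 (adjusted p = 0.130, limma), 4C11+ replicate 1 (adjusted p = 0.0527, limma) or 4C11+ replicate 2 (adjusted p = 0.0516, limma).

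The step from 4C to 4C11- went from pre-malignant to tumor-forming cells of the same mesenchymal-like shape. It brought 5 calls among the 62 members, all higher, where 1.26% of all genes were called higher and 0.406% lower. Of the 25 Hox genes 0 passed the limma test (1 at an unadjusted p under 0.05), with differences of -1.30 to 0.89. With so low a share of all genes called, this count says little about the Hox genes. The 5 members that rose in this step were Sox8, Alx4, Tbx15, Sox18 and Alx1. The rise of Sox8 was 4.35 (SE 0.93, adjusted p = 0.0420, limma) and lost its call in 9 of the 11 fits without a library. That of Alx4 was 4.12 (SE 0.66, adjusted p = 0.00874, limma), or at least 3.84-fold, and it was not called without 4C11- replicate 2 (adjusted p = 0.0570, limma). Without that library 3 members were called in all, and over all genes 97 were called instead of 238.

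The change with shape was then compared between the line pairs, that is, the difference of 4C from melan-a against the difference of 4C11- from 4C11+. These pairs share no library. They differed in 17 members, against 9.83% of all genes (1403 of 14272). Without 4C replicate 2 they differed in 11 members and in 865 of all 14272 genes. Without 4C11- replicate 2 they also differed in 11 members, and in 869 of all genes. The value, the first difference minus the second, was positive in 9 members, among them Hoxa3, Hoxa5, Hoxa6, Hoxa7, Hoxa9, Hoxa10, Hoxb13 and Tbx15. It was negative in 8, among them Sox8, Sox12, Sox18, Hoxb4, Dlx5, Alx1 and Alx4. Sox18 and Dlx5 were not detected in either epithelial line. Their value thus comes mostly from 4C against 4C11-, where Dlx5 was not called (adjusted p = 0.19, limma). Of the 9 Hoxc genes 0 passed this limma test (0 also at an unadjusted p under 0.05), with values of -0.49 to 1.05. None of them was detected in an epithelial line, so these values too come mostly from 4C against 4C11-. They cannot show whether the change with shape is alike in the pairs.

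Hoxa10 had a pair difference of 8.21 (SE 0.43, adjusted p = 2.21e-06, limma), since it rose by 7.95 in 4C and did not pass the test between 4C11+ and 4C11-. The pair differences of Hoxa7, Hoxa3 and Hoxa9 were 5.89 (SE 0.67, adjusted p = 0.000307, limma), 5.60 (SE 0.76, adjusted p = 0.000993, limma) and 5.17 (SE 0.63, adjusted p = 0.000456, limma). With melan-a at 3 reads, Hoxa10, Hoxa7, Hoxa3 and Hoxa9 gave 6.37, 3.41, 3.13 and 2.70. In the other direction Sox8 gave -8.65 (SE 1.40, adjusted p = 0.00299, limma), Sox12 -6.33 (SE 0.44, adjusted p = 7.97e-06, limma), Alx4 -4.69 (SE 0.99, adjusted p = 0.0127, limma) and Hoxb4 -4.30 (SE 0.68, adjusted p = 0.00255, limma). With 4C11+, and for Alx4 also 4C, at 3 reads, Sox8, Sox12, Alx4 and Hoxb4 gave -6.14, -3.82, -1.64 and -1.79.

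**Figure D4:**
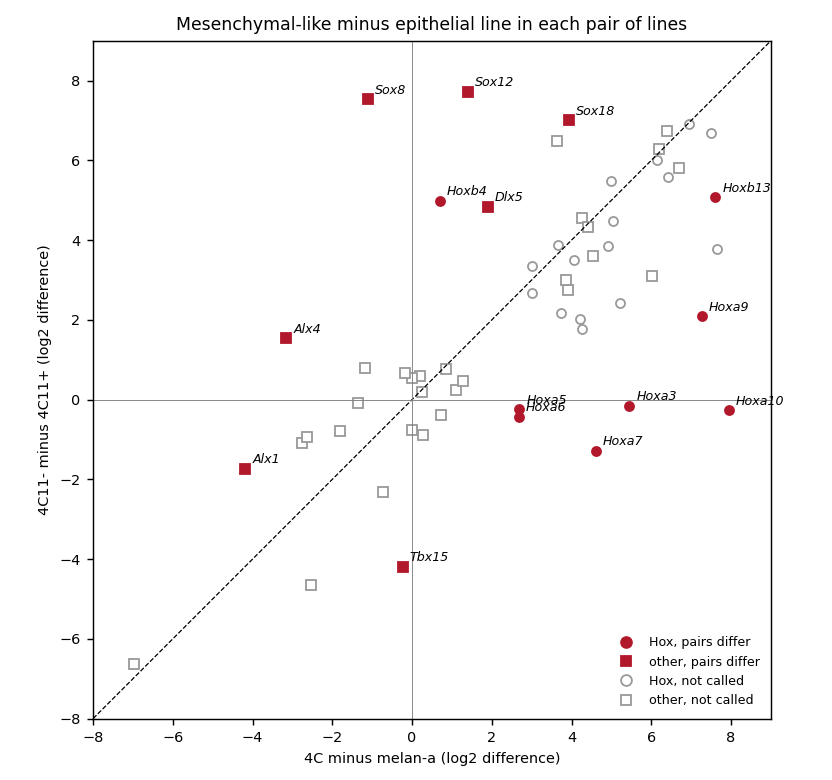
Log2 difference of each of 59 factors between 4C and melan-a (x axis) and between 4C11- and 4C11+ (y axis), with circles for Hox genes and squares for other factors. The 15 filled and named factors differed between the pairs at an adjusted p under 0.05 (limma). Of these, Sox18 and Dlx5 were not detected in melan-a or 4C11+. Hoxa3, Hoxa5, Hoxa6, Hoxa7 and Hoxa10 lie below the diagonal at y values near or under 0, and Sox8 and Sox12 lie far above it.

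Genes that work with these factors were taken from 3 lists. In the comparisons of single lines, the shares of all genes called are 7.64% higher and 7.55% lower in 4C against melan-a, 1.26% and 0.406% for the step to 4C11-, 15.6% and 15.4% in 4C11+ against 4C11-, and 8.39% and 7.52% in 4C11+ against melan-a. Of 21 cofactors, 14 had a row, and with the lines joined 3 were higher and 5 lower in the mesenchymal-like lines, beside 14.3% and 15.3% of all genes, with a median of 0.29 where that of all genes was -0.09. Eya1, a transcriptional coactivator, had means of 6.69 log2 CPM in melan-a and 3.11 in 4C11+ and of -3.11 in 4C and -3.34 in 4C11-, a difference of -8.12 (adjusted p = 3.30e-08, limma), or -6.31 with the mesenchymal-like lines at 3 reads. Eya4 had means of -1.07 in melan-a, 3.50 in 4C11+, -3.44 in 4C and 0.82 in 4C11-, and its highest level was in 4C11+. The corepressor genes Tle2 and Tle1 differed by 1.71 and -1.19. Between 4C and melan-a 1 cofactor was higher and 3 lower in 4C, and 1 was higher in 4C11- than in 4C. In 4C11+ 3 were higher and 4 lower, both against 4C11- and against melan-a.

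Of 40 other patterning and mesenchyme factors, 21 had a row, and 14 were higher and 2 lower in the mesenchymal-like lines, beside 14.3% and 15.3% of all genes, with a median of 1.73, or 1.33 with undetected lines at 3 reads. Prrx2, Twist2, Foxf2 and Twist1, factors of limb, head and gut mesenchyme, were not detected in either epithelial line. They differed by 7.63, 7.39, 7.34 and 4.71, or at least 5.45, 4.90, 4.85 and 2.50 on the log2 scale. Between 4C and melan-a 9 were higher and 2 lower in 4C, and 1 was lower in 4C11- than in 4C. In 4C11+ 2 were higher and 10 lower than in 4C11-, and 4 were lower than in melan-a.

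Retinoic acid is a known regulator of Hox genes. Of 18 genes of its synthesis and signalling, 10 had a row, and 4 were higher and 2 lower in the mesenchymal-like lines, beside 14.3% and 15.3% of all genes, with a median of 0.42. Aldh1a3, an enzyme that makes retinoic acid, had means of 4.17 log2 CPM in melan-a and 4.08 in 4C11+ and of -0.66 in 4C and -1.87 in 4C11-, a difference of -5.39 (adjusted p = 4.45e-07, limma). Aldh1a1, another such enzyme, was low in 4C alone, with means of 0.99 in melan-a, 1.82 in 4C11+, 1.31 in 4C11- and -3.11 in 4C, so its joined difference of -2.31 (-1.38 with 4C at 3 reads) came from that line. Stra6, a receptor for retinol uptake, and Dhrs3, an enzyme that reduces retinaldehyde, were higher in the mesenchymal-like lines by 3.22 and 2.16. Between 4C and melan-a 2 were higher and 2 lower in 4C, and 1 was higher in 4C11- than in 4C. In 4C11+ 1 was higher and 4 lower than in 4C11-, and 0 passed the limma test against melan-a (1 at an unadjusted p under 0.05).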

How the data were processed

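Triplicate cultures of each line were sequenced with a stranded total RNA kit after removal of ribosomal RNA, per the labels. For melan-a only replicates 2 and 3 were used here. The authors trimmed the reads with Trimmomatic, aligned them with STAR to the mouse genome (GRCm38, Ensembl 90), assigned them to genes with Rsubread, removed genes that did not reach 1 CPM in 4 or more libraries, and normalized the counts with voom of limma. The unit of the values deposited by the authors is log2 CPM. All 11 libraries share 1 highest value (13.69), as after a quantile normalization. Tool versions and the strand setting of the counting are not given in the sources used here.

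Gene symbols came from GENCODE M21 (GRCm38), and 24 of the 14272 genes had none. Reads were read from the rank of the tied low values in each library. The fit was limma 3.58.1 in R 4.3.3 on the deposited values, with the 4 line means as coefficients, all 11 libraries in 1 fit, the prior variance following the mean (a trend), and p-values adjusted by Benjamini-Hochberg over all genes. It was tested on simulated data. The joined comparison takes the mean of the 4C and 4C11- means minus that of melan-a and 4C11+. The p-values measure the spread between cultures of a line. Tables and figures were made in Python 3.11.15 with NumPy 2.4.6, pandas 2.3.3 and matplotlib 3.10.9. Some members are counted in the totals but, like a transcript that overlaps 1 of them, not reported here. All others are named, and for each comparison up to 8 with the largest log2 difference at an adjusted p under 0.05 are described by library or line. The members and gene lists were chosen with earlier results of these data known. In 23 members an exon overlaps another gene, in 9 on the same strand and in 16 on the other, which makes their levels uncertain. The alternatives were a further quantile normalization, median centring, log2(CPM + 1), a mean of at least 1 log2 CPM, the replicate number as a block, no trend, a robust prior, only the 2 lines compared, and each library left out.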

Additional observations from a re-analysis of the deposited data

Results flagged for a closer look

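In 15 of the factors described the difference between the mesenchymal-like and the epithelial line was not the same in the pair 4C and melan-a as in the pair 4C11- and 4C11+, by the interaction of the limma fit at an adjusted p under 0.05. The value is the log2 difference of 4C from melan-a minus that of 4C11- from 4C11+. Among the Hox genes it was 8.21 for Hoxa10, 5.89 for Hoxa7, 5.60 for Hoxa3, 5.17 for Hoxa9, 3.10 for Hoxa6, 2.92 for Hoxa5, 2.54 for Hoxb13 and -4.30 for Hoxb4. Among the SOX factors it was -8.65 for Sox8, -6.33 for Sox12 and -3.07 for Sox18. It was 3.96 for Tbx15, -4.69 for Alx4, -2.94 for Dlx5 and -2.45 for Alx1. For Sox18 and Dlx5, not detected in either epithelial line, the value comes mostly from 4C against 4C11- and says little about the epithelial lines. The call of Hoxa6 was lost in 10 of the 11 fits without a library, those of Dlx5 and Hoxb13 in 9, that of Sox18 in 3 and that of Alx4 in 1.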

How the results depend on the processing

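The numbers of members called stayed within 1.5 times under the further quantile normalization, median centring, log2(CPM + 1), no trend, the robust prior and, for comparisons of single lines, the fit of only the 2 lines compared. A mean of at least 1 log2 CPM left 34 of the 62 members. It called 19 instead of 43 in 4C against melan-a and 1 instead of 5 in 4C11- against 4C. In 4C11+ against 4C11- it called 17 instead of 40, and between the mesenchymal-like and epithelial lines 21 instead of 46. Among the 4 lines the number was 23 instead of 50, and between the pairs 9 instead of 17. This setting took out the members with a low mean, so the larger of these numbers rest in part on members with low values. Without each library in turn, the numbers were 37 to 43 in 4C against melan-a, 3 to 5 in 4C11- against 4C (3 without 4C11- replicate 2), 35 to 42 in 4C11+ against 4C11-, 14 to 20 in 4C11+ against melan-a, 46 to 52 for the joined lines, 47 to 51 among the lines and 11 to 17 between the pairs (11 without 4C replicate 2 or 4C11- replicate 2). Over all genes the calls between the pairs also fell without 4C replicate 2 or 4C11- replicate 2, from 1403 to 865 and 869. A single melan-a library was assumed to vary like the other lines. Whether the replicate numbers pair the libraries could not be settled. The deviations of same-numbered libraries correlated at -0.23 to 0.39 over 15 pairs, and 8 pairs were over 0.1. The deviations of the 2 melan-a libraries are mirror images of each other, so their pairs add little. With the replicate number as a block, 13 instead of 17 members were called between the pairs, and the 6 other numbers were 43, 5, 40, 18, 46 and 50, as without it. Of 45 differences of single members, 0 changed direction under any setting, and 4 lost a call in 1 or more of the fits without a library. Sox8 lost its rise in 4C11- against 4C under 2 further settings and its fall in 4C11+ against melan-a under 2. Depth limits the low factors: 3 reads lay between -2.01 and 0.15 log2 CPM, and a difference below that was not detectable.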

Other observations

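The levels of 10 noncoding transcripts of the same loci, chosen with the values of the factors known, were read from the deposited values without a test. Hotair, a noncoding RNA of the Hoxc cluster, had at most 1 read in melan-a, 0 reads in 4C11+ and means of 2.58 log2 CPM in 4C and 1.70 in 4C11-, as the Hoxc genes around it. Hoxa11os was at 0 reads in melan-a and had means of 3.63 in 4C, 2.49 in 4C11- and 1.05 in 4C11+. In 4C11+ it was highest in replicate 2 at 2.24, the library in which Hoxa11 was also highest. Dlx4os was at 0 reads in all 5 epithelial libraries and had means of 1.73 in 4C and 1.88 in 4C11-. The other transcripts were less alike. 5730596B20Rik, Hoxb3os and Hoxb5os were at 0 reads in melan-a and had means of 2.68, 0.28 and 1.17 in 4C, while Hoxaas2 and Hoxaas3 had means of -1.66 and -0.39 in melan-a and 1.60 and 1.56 in 4C. Hoxaas3 was at 1.18 in 4C11+. Dlx1as was highest in melan-a, with means of 1.55 there, 0.63 in 4C, -0.37 in 4C11- and -0.08 in 4C11+, and Dlx6os1 had means of 1.54, 1.53 and 1.39 in melan-a, 4C and 4C11- and 0.53 in 4C11+. Whether reads were counted by strand is not given in the sources used here, so these levels and those of the overlapping factors cannot be told apart.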
